A study of Mus musculus with 6 samples.

Results

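The genes described were 10 chemokine receptors that T cells use, *Ccr2*, *Ccr4*, *Ccr6*, *Ccr7*, *Ccr8*, *Ccr9*, *Cxcr3*, *Cxcr4*, *Cxcr5* and *Cxcr6*, taken by name from 19505 genes measured on Clariom S mouse arrays. mRNA was measured in regulatory T (Treg) cells sorted as CD4+YFP+ from spleens and peripheral lymph nodes of female mice aged 8 to 12 weeks that were free of inflammation. The 3 control samples came from *Foxp3* Cre/wt mice. The 3 *Rbx1*&*Sag*-deficient samples came from mice that joined the *Foxp3* Cre/wt alleles with floxed *Rbx1* (fl/fl) and floxed *Sag* (fl/fl), in which Cre was aimed at the genes of both RING subunits of the cullin-RING ubiquitin ligases. Each sample was a pool of 2 to 3 mice on 1 array, and the p-values below reflect only how such pools varied.

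Both genotypes carried the Cre allele, which the *Foxp3* gene drives together with the YFP marker used for the sort. *Foxp3* is X-linked, so the females also held Treg cells without Cre, and the sorted cells lived beside them. The sample titles carry the word Muscle, whereas the other labels name Treg cells. The 7 muscle markers had a mean log2 level between 3.46 and 3.69 on all 6 arrays, and the 6 Treg markers a mean between 14.07 and 15.72. *Foxp3* itself was not analysed here.

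Chemokine receptors are membrane receptors that couple to G proteins and steer migrating cells up gradients of small secreted chemokines. Resting T cells carry CCR7, which brings them into lymph nodes and the T cell zones of the spleen. Activated T cells and effector Treg cells carry other receptors instead, among them CCR4 and CCR8 for skin and barrier tissue, CXCR3 for sites of type 1 inflammation, CCR6 for mucosa and CXCR5 for B cell follicles.

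*Rbx1* signal checked the labels. It was 9.26, 10.08 and 9.80 in the control samples and 5.04, 5.53 and 5.84 in the deficient samples (log2 fold change -4.24, limma adjusted p = 0.000237). *Rnf7*, the gene of SAG, read 11.47, 11.29 and 10.93 against 10.94, 11.39 and 9.65 (-0.57, limma adjusted p = 0.379). Where its probes lie relative to the deleted part of the gene was not given, and the groups overlapped. Correlations between arrays were 0.992 to 0.993 among controls and 0.976 to 0.983 among deficient samples. The median signal of an array, most of whose genes are dim, was 4.0 to 4.32, which is the level used below to say that a receptor was dim.

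Of the 10 receptor genes, 6 fell and 1 rose in the deficient cells. *Ccr4*, *Cxcr5*, *Ccr8*, *Ccr2*, *Cxcr3* and *Ccr6* were lower by 12.1-fold to 40.6-fold, *Ccr7* was 2.36-fold higher, and *Ccr9*, *Cxcr4* and *Cxcr6* did not pass the test. The test was limma on the deposited log2 values, with a gene called at a Benjamini-Hochberg adjusted p under 0.05 over all 19505 genes. By the same rule, 9.49% of all genes were called lower and 2.70% higher. Counting instead a fold above 2 with an unadjusted p under 0.05 gave 6 receptors lower and 1 higher, beside 10.6% of genes lower and 2.78% higher. The median log2 fold change was -3.64 over the 10 receptors and 0.04 over all genes. Among the 9747 genes above the median signal it was -0.40, and a fit on those genes alone called 20% of them lower and 3.32% higher. In sorted bulk samples, fewer cells that carry a receptor and less of its mRNA per cell cannot be told apart.

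All 3 deficient samples lay below all 3 controls for 6 receptors and above them for 1. Over all genes, 19.7% had every deficient array below every control and 15.2% had every one above. With 3 against 3 arrays, the exact two-sided permutation test cannot give a p below 0.1, and 7 receptors had that value. In the control samples at most 1 receptor per array lay under the array median, whereas in each deficient sample 4 did, namely *Ccr2*, *Ccr4*, *Ccr6* and *Cxcr6*.

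**Figure D1:**
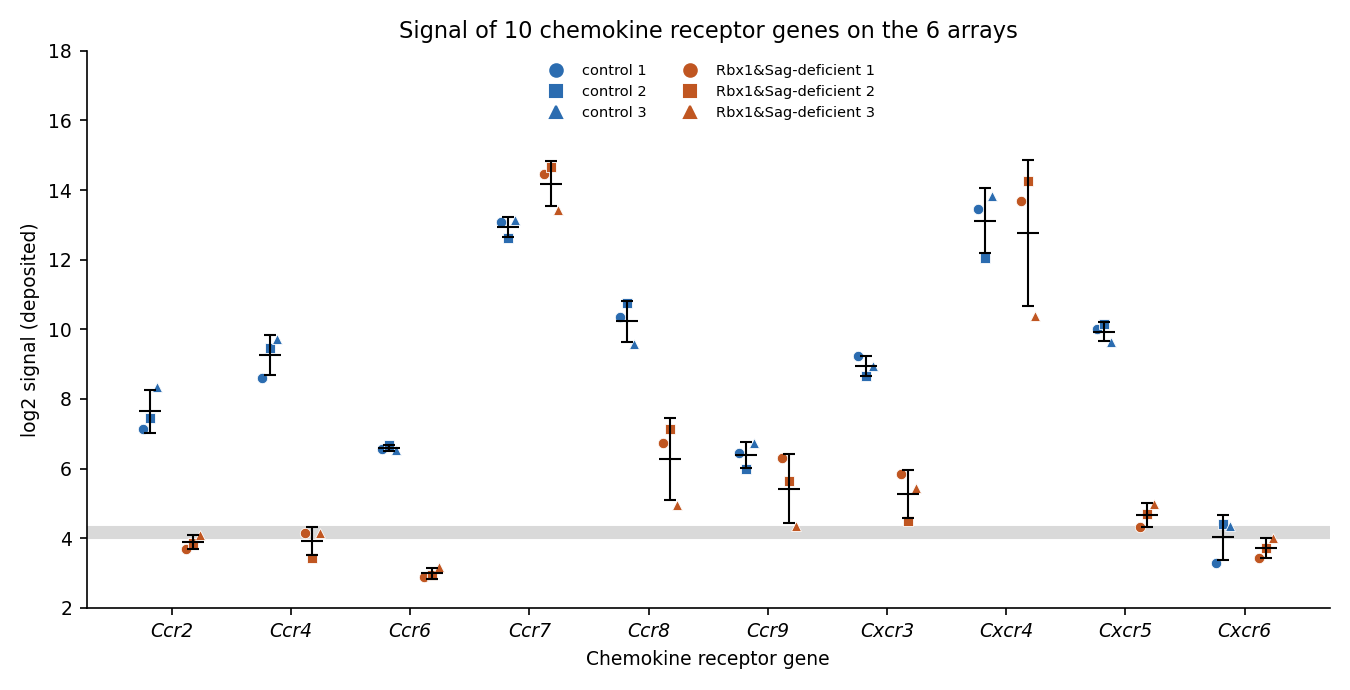
Deposited log2 signal (y axis) of the 10 receptor genes (x axis) on each array, controls in blue and Rbx1&Sag-deficient samples in orange, with the replicate number as the symbol; black bars give the mean ± SD (n = 3 each) and the grey band spans the array medians, 4.0 to 4.32. The colours are apart for *Ccr2*, *Ccr4*, *Ccr6*, *Ccr8*, *Cxcr3* and *Cxcr5*, with orange lower, and for *Ccr7*, with orange higher.

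*Ccr4* and *Cxcr5* had the deepest falls of the receptors, and their order turned without control replicate 3 or deficient replicate 2. *Ccr4* encodes the receptor of CCL17 and CCL22, which recruits Treg cells to skin, airways and activated dendritic cells. Its log2 signal was 8.60, 9.46 and 9.72 in the control samples and 4.15, 3.44 and 4.16 in the deficient samples. The deficient samples thus sat below the median of their own arrays (4.26, 4.13 and 4.32). This gave a log2 fold change of -5.34 (SE 0.34, 95% confidence interval -6.10 to -4.59, limma adjusted p = 0.000134), a 40.6-fold difference.

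*Ccr8* encodes the receptor of CCL1 and, in the mouse, CCL8, and marks highly activated Treg cells in tissues and tumours. The control samples read 10.35, 10.75 and 9.58, and the deficient samples 6.74, 7.13 and 4.94. Every deficient value was lower than every control, with the third deficient sample 2.00 below the mean of the other pair. The log2 fold change was -3.96 (SE 0.54, 95% confidence interval -5.17 to -2.75, limma adjusted p = 0.00312). Signal of *Ccr8* in the deficient cells stayed above the array medians, unlike that of *Ccr4*.

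*Ccr6* encodes the receptor of CCL20 and is carried by T helper 17 cells and by Treg cells of mucosal tissue. It read 6.55, 6.69 and 6.53 in the control samples and 2.88, 2.93 and 3.16 in the deficient samples. Both groups were tight, and the deficient values lay under the lower quartile of their arrays (3.28, 3.18 and 3.34). On the log2 scale the difference was -3.60 (SE 0.21, 95% confidence interval -4.07 to -3.13, limma adjusted p = 9.465e-05). Of the 6 receptors that fell, *Ccr6* was the 1 that stayed called under all 18 alternatives.

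The upstream sequences of these 3 genes are shown as examples of windows that held letters of motifs that factors of effector Treg cells bind. They are the 250 bases before the RefSeq start (GRCm38.p6), with the match in capitals.
Ccr4, AP-1 letters, chr9:114496545-114496794, minus strand: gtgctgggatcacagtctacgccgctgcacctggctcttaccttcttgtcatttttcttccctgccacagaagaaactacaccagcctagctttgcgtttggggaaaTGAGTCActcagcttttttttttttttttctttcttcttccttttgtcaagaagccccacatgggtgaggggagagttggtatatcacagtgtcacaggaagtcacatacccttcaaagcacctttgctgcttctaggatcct
Ccr8, GATA letters on the opposite strand, chr9:120091883-120092132, plus strand: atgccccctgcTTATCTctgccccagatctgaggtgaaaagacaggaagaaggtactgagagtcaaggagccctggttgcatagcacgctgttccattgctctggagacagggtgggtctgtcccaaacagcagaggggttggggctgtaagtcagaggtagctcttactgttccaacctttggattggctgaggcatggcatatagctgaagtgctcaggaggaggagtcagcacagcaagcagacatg
Ccr6, ROR letters on the opposite strand, chr17:8235793-8236042, plus strand: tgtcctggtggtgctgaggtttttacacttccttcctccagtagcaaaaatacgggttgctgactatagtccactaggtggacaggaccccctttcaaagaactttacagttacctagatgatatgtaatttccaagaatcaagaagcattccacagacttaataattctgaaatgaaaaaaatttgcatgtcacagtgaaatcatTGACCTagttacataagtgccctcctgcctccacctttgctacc
RefSeq's promoter table held 9 start sites of 8 of the receptors, and 7 motifs were searched on both strands. *Ccr7* and *Cxcr5* had no window, so nothing below covers them. AP-1 (TGANTCA, the site of BATF with JUN) was in *Ccr4* alone, 143 to 137 bases before the start, and in 6.75% of 32851 mouse promoters of the same length. The *Ccr4* start lies inside the span that RefSeq gives the gene. GATA letters (AGATAA) were found in *Ccr2*, *Ccr6* and *Ccr8*, in *Ccr8* 239 to 234 bases before the start, and in 9.99% of promoters. The *Ccr2* match lay 97 to 92 bases before the start. *Ccr6* had another start site, whose window is not printed, and its GATA match lay there, 70 to 65 bases before that start. ROR letters (AGGTCA), bound by ROR-family receptors, was found in *Ccr6*, 44 to 39 bases before the start, and in 14.0% of promoters. The letters searched for CRE (TGACGT), T-box (GGTGTGA), FOXO (GTAAACA) and KLF (GGGTGTG) motifs were in none of the 9 windows, against 6.47%, 3.33%, 3.17% and 6.93% of all promoters. A match of letters describes the window and shows no binding.

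*Cxcr3* encodes the receptor of CXCL9 and CXCL10 and directs T-bet-expressing Treg cells to sites of interferon-driven inflammation. Its signal was 9.23, 8.65 and 8.96 in the control samples and 5.85, 4.50 and 5.44 in the deficient samples. The groups were separated by more than the spread within either. This amounted to a log2 fold change of -3.68 (SE 0.35, 95% confidence interval -4.47 to -2.90, limma adjusted p = 0.000644).

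*Ccr2* encodes the receptor of CCL2 and serves the entry of effector T cells and monocytes into inflamed tissue. It read 7.14, 7.46 and 8.33 in the control samples and 3.69, 3.86 and 4.10 in the deficient samples. All deficient values lay below their array medians. The log2 fold change was -3.76 (SE 0.32, 95% confidence interval -4.47 to -3.05, limma adjusted p = 0.00048), a 13.5-fold difference. *Ccr2* is also a gene of monocytes, and 4 of the 10 myeloid markers fell with it, namely *Cybb* (9.22 to 4.04), *Spi1* (5.51 to 3.40), *Lyz2* (5.01 to 3.10) and *Fcer1g* (4.23 to 3.06). The mean level of the 10 was 4.69 to 5.02 in the control samples and 3.72 to 3.80 in the deficient samples. By the same rule 9.49% of all genes were called lower, and 20% in the fit on genes above the median signal. The other 6 myeloid markers did not pass. Of these, *Ly6c2*, carried by inflammatory monocytes, lay well above the array medians in both groups (7.63 and 6.91, limma adjusted p = 0.129), and *Itgam*, *Csf1r*, *Adgre1*, *Cd14* and *Csf3r* had group means of 3.07 to 3.97. *Itgam* (3.15 and 3.62), *Adgre1* (3.48 and 3.79) and *Csf3r* (3.14 and 3.25) were higher in the deficient samples. *Csf1r* (3.97 and 3.38) and *Cd14* (3.14 and 3.07) were lower. The part of such cells in the *Ccr2* result was not tested.

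*Cxcr5* is the receptor of CXCL13, which draws B cells and follicular T cells, follicular Treg cells among them, into B cell follicles. The control samples read 10.01, 10.16 and 9.63, and the deficient samples 4.32, 4.70 and 4.98. Both groups were tight, and the deficient values sat just above the array medians. On the log2 scale *Cxcr5* differed by -5.27 (SE 0.25, 95% confidence interval -5.84 to -4.69, limma adjusted p = 5.155e-05), a 38.5-fold difference. B cells also carry *Cxcr5*. Of 9 B cell markers, *Cd79b* was the 1 that fell (7.09 to 5.28, limma adjusted p = 0.0018). Over all genes 9.49% were called lower, and 20% in the fit on genes above the median signal. The other 8 B cell markers did not pass and were dim in both groups. Among them *Cd22* (3.73 and 3.01) and *Cr2* (2.97 and 2.62) were lower in the deficient samples, and *Ms4a1* (2.79 and 3.15) and *Pax5* (2.77 and 3.20) higher. The mean level of the 9 was 3.72 to 3.78 in the control samples and 3.44 to 3.62 in the deficient samples. The part of B cells in the *Cxcr5* result was not tested.

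*Ccr7* moved the other way. It encodes the lymph node homing receptor of CCL19 and CCL21, typical of resting, central Treg cells. Its signal was 13.07, 12.62 and 13.14 in the control samples and 14.45, 14.65 and 13.44 in the deficient samples. The groups did not overlap, although the third deficient sample came within 0.30 of the highest control. The log2 fold change was 1.24 (SE 0.33, 95% confidence interval 0.49 to 1.99, limma adjusted p = 0.0429). The direction held under all 18 alternatives, with values from 1.0 to 1.83. The call did not hold without control replicate 1, 2 or 3 (limma adjusted p = 0.107, 0.171 and 0.106), without deficient replicate 1 or 2 (0.113 and 0.0743), or with arrays centred on their medians (0.0818). Without deficient replicate 3 the log2 fold change was 1.61 (limma adjusted p = 0.005).

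The log2 ratio of *Ccr7* to *Cxcr5* signal within an array was 3.06, 2.46 and 3.51 in the control samples and 10.13, 9.95 and 8.46 in the deficient samples. Such a ratio does not move with a shift of a whole array. Only its change can be read, since levels of different probes are not comparable, and that change was 6.50, with a range of 6.20 to 7.03 over the alternatives. Centring, moderation and the choice of genes cannot alter this change. The range thus comes from omitted arrays, array weights, the linear scale and quantile or cyclic loess normalization. Against *Ccr4* the ratio of *Ccr7* changed by 6.58. The changes against *Ccr8*, *Ccr2*, *Cxcr3* and *Ccr6* were between 4.84 and 5.19. Against *Cxcr4* and *Cxcr6* they were 1.58 and 1.54. These ratios are descriptions with no test.

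*Cxcr4* encodes the receptor of CXCL12, which retains cells in bone marrow and is widely carried by resting and activated lymphocytes. It read 13.46, 12.06 and 13.83 in the control samples and 13.68, 14.27 and 10.37 in the deficient samples. The third deficient sample stood 3.61 below the mean of the other pair, and the groups overlapped. The log2 fold change was -0.34 (SE 0.90, 95% confidence interval -2.37 to 1.68, limma adjusted p = 0.829), so that falls or rises of several-fold lie within the interval. It was 0.86 without deficient replicate 3 (limma adjusted p = 0.272), and its sign also turned without control replicate 3, after quantile or cyclic loess normalization, after centring on the brighter genes and on the linear scale.

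*Ccr9* encodes the receptor of CCL25, which brings T cells to the small intestine. Signal was 6.46, 6.0 and 6.74 in the control samples and 6.29, 5.64 and 4.34 in the deficient samples. The third deficient sample was again the lowest, and the groups overlapped. Its log2 fold change was -0.98 (SE 0.45, 95% confidence interval -1.99 to 0.04, limma adjusted p = 0.179).

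*Cxcr6* encodes the receptor of CXCL16, found on tissue-resident and liver-homing T cells. It read 3.29, 4.42 and 4.36 in the control samples and 3.43, 3.71 and 4.02 in the deficient samples. Controls 2 and 3 lay slightly above their array medians, and the other 4 samples lay below theirs. The log2 fold change was -0.30 (SE 0.33, 95% confidence interval -1.05 to 0.44, limma adjusted p = 0.571), and it was 0.29 after centring on the brighter genes. With control signal near the array medians, the arrays leave little room to show a fall.

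The third deficient sample did not stand apart for every receptor. Its signal lay 3.61, 2.00, 1.62 and 1.11 below the mean of the other pair for *Cxcr4*, *Ccr8*, *Ccr9* and *Ccr7*. For the other 6 receptors it lay 0.26 to 0.47 above that mean. Leaving the sample out kept 6 receptors called lower and 1 higher.

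**Figure D2:**
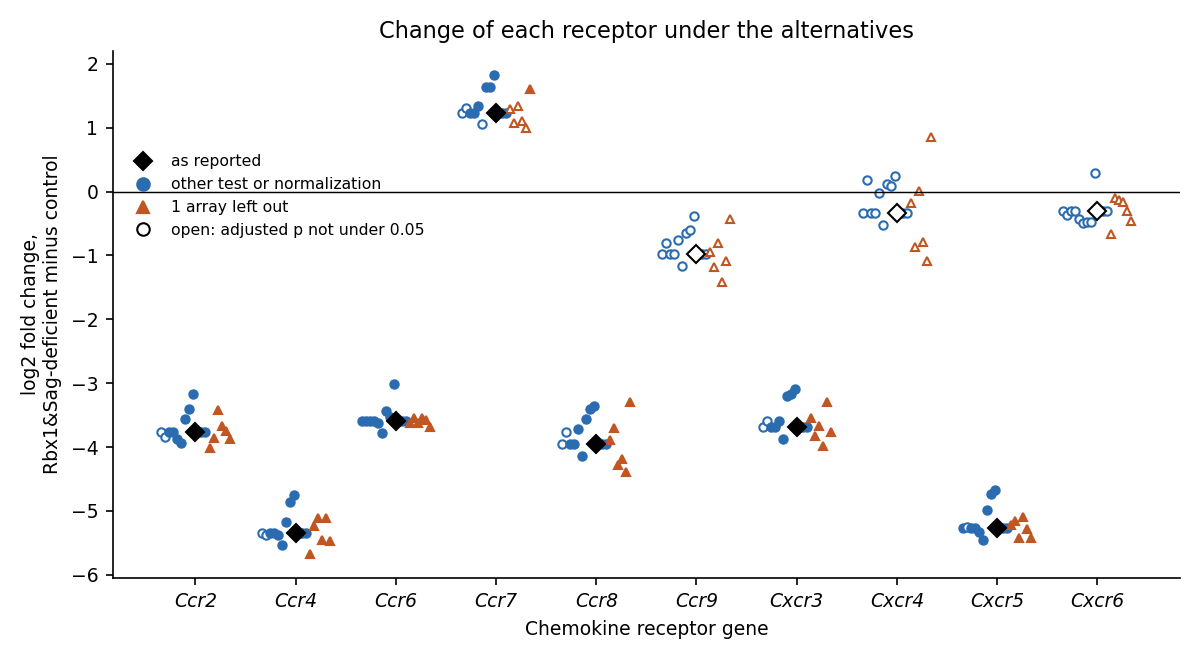
Log2 fold change of each receptor (y axis, Rbx1&Sag-deficient minus control; genes on the x axis) as reported (black diamonds), under another test or normalization (blue circles) and with 1 array left out (orange triangles); open symbols have an adjusted p that is not under 0.05. The 6 receptors that fell stay far below 0, *Ccr7* stays between 1.0 and 1.83 with many open symbols, and *Cxcr4* lies on both sides of 0.

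Ranked by log2 fold change from the deepest fall, the 6 receptors that fell stood between places 4 and 38 of 19505 genes. The receptors that fell had control means between 6.59 and 10.23.

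**Figure D3:**
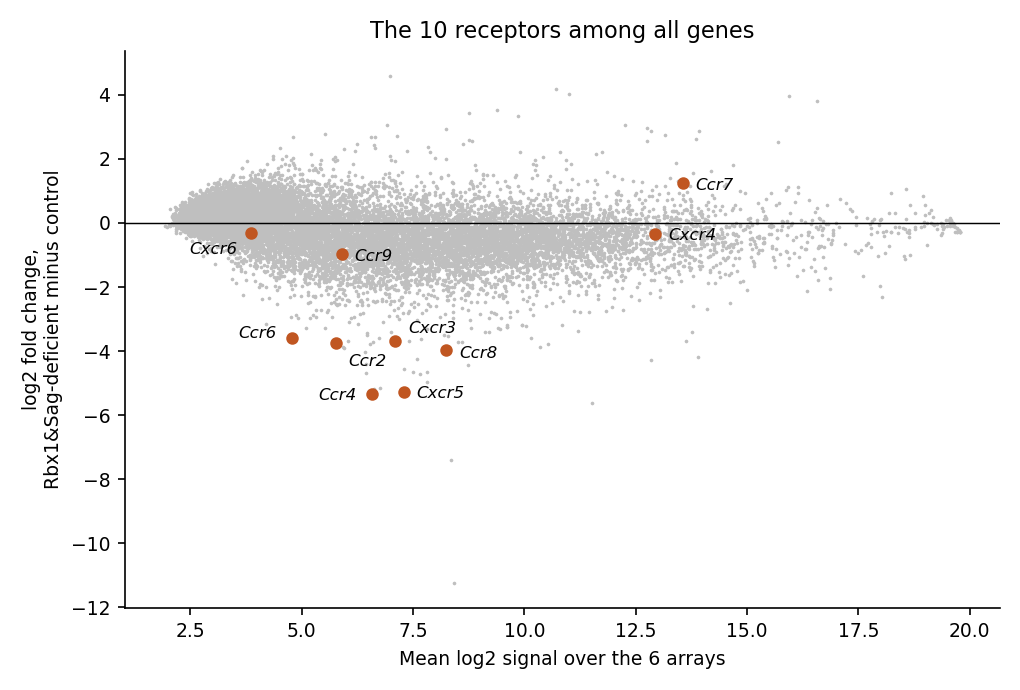
Log2 fold change (y axis, Rbx1&Sag-deficient minus control) against the mean log2 signal over the 6 arrays (x axis) for all 19505 genes (grey points) and the 10 receptors (orange, named). The 6 receptors that fell lie at -3.60 or below, under the main cloud of genes, while *Ccr7* lies above 0 among bright genes.

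A further 15 receptors for chemokines and related attractants were measured, of which 3 fell and 0 rose (median log2 fold change -0.10, 5 at an unadjusted p under 0.05). Over all 19505 genes, 5899 had an unadjusted limma p under 0.05. Of all genes, 9.49% were called lower and 2.70% higher. *Gpr15*, which brings T cells to the colon in the mouse, read 7.22, 8.14 and 8.36 in the control samples and 4.78, 3.66 and 3.54 in the deficient samples. Its log2 fold change was -3.91 (SE 0.40, limma adjusted p = 0.000944), the 1 value of this list as deep as those of the 6. *Ccrl2*, which binds chemerin and does not signal, went from 7.51 to 6.37 (-1.14, limma adjusted p = 0.0213), and *Ccr3*, the eotaxin receptor, from 5.86 to 4.58 (-1.28, limma adjusted p = 0.0236). *Cx3cr1*, the fractalkine receptor, had a log2 fold change of 0.78 that did not pass (limma adjusted p = 0.0917). The count of 3 was 1 without control replicate 2 or 3. The methods' t-test with Benjamini-Hochberg adjustment called 0 of the list lower, and 1 was called higher without deficient replicate 3. Lower calls numbered 1 after quantile normalization or centring on the brighter genes, and the latter called 4 higher.

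**Figure D4:**
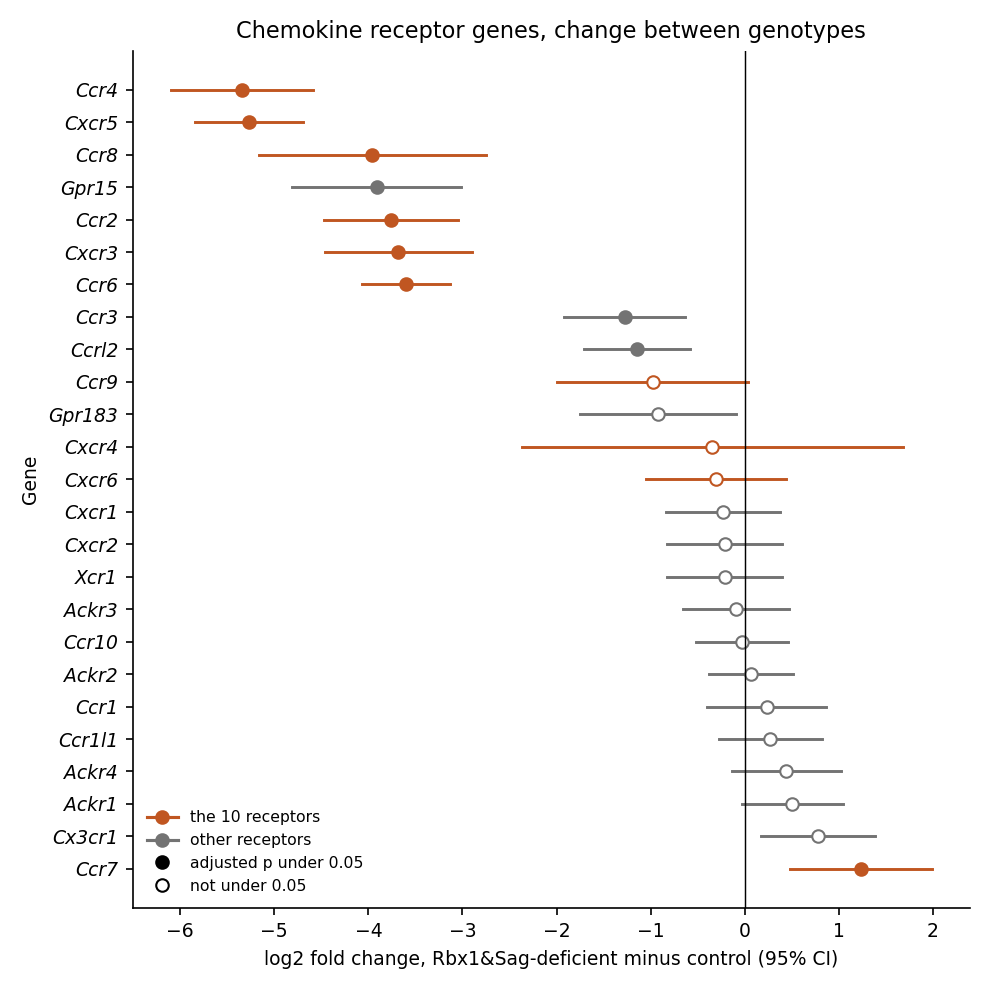
Log2 fold change (x axis, Rbx1&Sag-deficient minus control) with its 95% confidence interval for the 10 receptors (orange) and the other 15 chemoattractant receptors (grey), 1 per row; filled points have a limma adjusted p under 0.05. *Gpr15* lies among the 6 receptors that fell, and most of the other grey points lie near 0.

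The chemokine receptors are clustered on the genome, and 6 of the 10 lie on chromosome 9 (RefSeq, GRCm38.p6). There, *Ccr2*, *Ccr4*, *Ccr8* and *Cxcr5* fell, 4 of 6, against 2 of 4 on other chromosomes. Over all genes 9.49% were called lower. A part of the position on the genome in these falls was not tested. A single stretch holds *Ccr9*, *Fyco1*, *Cxcr6*, *Xcr1*, *Ccr1*, *Ccr1l1*, *Ccr3* and *Ccr2* in this order. *Ccr4*, *Ccr8* and *Cxcr5* lie outside this stretch. Within it the log2 fold change was -0.98 for *Ccr9*, -0.30 for *Cxcr6*, -0.21 for *Xcr1*, 0.23 for *Ccr1*, 0.27 for *Ccr1l1*, -1.28 for *Ccr3* and -3.76 for *Ccr2*. Of these receptors *Ccr2* and *Ccr3* passed the test, and *Xcr1*, *Ccr1* and *Ccr1l1*, receptors of dendritic and myeloid cells, were dim in both groups. *Cxcr6* starts inside *Fyco1*, which fell by 1.01 (limma adjusted p = 0.039).

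**Figure D5:**
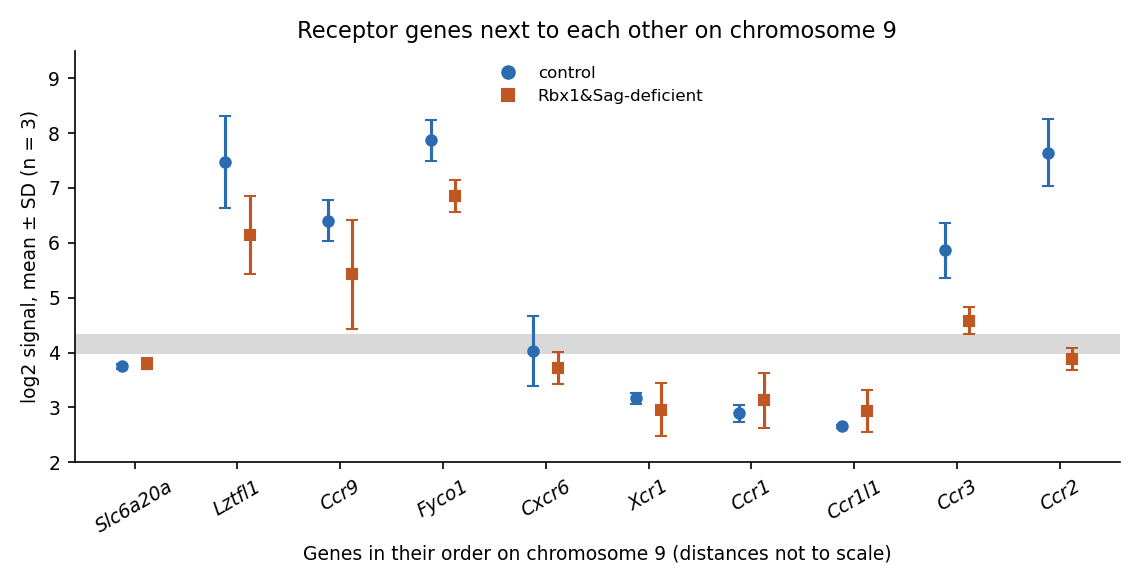
Mean log2 signal ± SD (y axis, n = 3 per group) of the genes in chromosome order around the *Ccr9* to *Ccr2* stretch of chromosome 9 (x axis, order only), control in blue and Rbx1&Sag-deficient in orange; the grey band spans the array medians. *Ccr2* has the widest gap between the groups, 7.64 against 3.88, and *Xcr1*, *Ccr1* and *Ccr1l1* lie below the band.

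Of the 19 ligand genes of the 10 receptors, 0 were called lower and 0 higher by limma, with 3 at an unadjusted p under 0.05 and 0 called by the methods' t-test after adjustment. Over all 19505 genes limma called 9.49% lower and 2.70% higher, and 5899 had an unadjusted p under 0.05. The median log2 fold change of the ligands was 0.13, and the brightest group mean among them was 5.76, that of *Cxcl10* in the control samples. *Ccl21a*, a CCR7 ligand of lymph node stroma, had the smallest adjusted p (4.20 and 4.97, limma adjusted p = 0.0713). *Cxcl10*, a CXCR3 ligand, followed (5.76 and 4.54, limma adjusted p = 0.0856). *Ccl25*, the CCR9 ligand (5.49 and 5.51), and *Ccl20*, the CCR6 ligand (5.11 and 4.72), also lay above the array medians and are named after their values were seen. *Ccl12* (2.45 and 3.06) and *Ccl8* (2.58 and 3.12) lay below them. Without deficient replicate 1, 1 ligand was called lower, and without deficient replicate 2, 1 was called higher. Centring on the brighter genes, which shifts all genes upward, called 10 of the 19 higher. *Ccl21b* had 2 probe sets. The set kept had a log2 fold change of 0.36, and the other had values identical to those of *Ccl21c* (0.17).

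Of 34 genes for G proteins and cell motility that act below the receptors, 11 fell and 1 rose (median log2 fold change -0.64). Of all genes, 9.49% were called lower and 2.70% higher. Many of the 34 are bright, and the fit on genes above the median signal called 20% lower and 3.32% higher (median -0.40). *Tiam1*, an exchange factor that activates the GTPase Rac, went from 9.68 to 7.13 (-2.55, limma adjusted p = 0.00071). *Gnaq*, a G protein alpha subunit, went from 7.24 to 5.27 (-1.97, limma adjusted p = 0.00179). *Rhoh*, a haematopoietic small GTPase, and *Gng2*, a G protein gamma subunit, had log2 fold changes of -1.83 and -2.76. *Gna13*, another G protein alpha subunit, was the 1 that rose, from 10.91 to 12.26 (limma adjusted p = 0.0137), and is named after its value was seen. The count of 11 was 7, 5 and 5 without control replicate 1, 2 and 3, each of which also left *Gna13* uncalled, and 7 after quantile or cyclic loess normalization. Centring on the brighter genes called 7 lower and 5 higher.

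Of 21 transcription factors linked to these receptors, 5 fell and 2 rose (median log2 fold change -0.25). Over all genes the calls were 9.49% lower and 2.70% higher, and 20% and 3.32% in the fit on genes above the median signal. *Batf*, an AP-1 family factor that effector Treg cells need, went from 10.74 to 7.92 (-2.82, limma adjusted p = 0.00231). *Maf*, a factor of follicular and interleukin-10-producing T cells, and *Prdm1*, which encodes the effector factor BLIMP-1, had log2 fold changes of -3.50 and -1.89. *Satb1*, a chromatin organiser of resting T cells, rose from 13.78 to 15.59 (1.81, limma adjusted p = 0.00231). *Klf2*, which maintains the lymphoid recirculation program of naive T cells, read 10.57, 10.74 and 10.56 in the control samples and 13.15, 13.33 and 12.07 in the deficient samples (2.23, limma adjusted p = 0.0046).

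*Rora* and *Ahr* were the other two that fell, by 2.43 and 1.49 on the log2 scale. The 3 probe sets of *Rora* disagreed, at -2.43, -3.76 and 0.37. The probe set at 0.37 read 3.91, 3.71 and 3.55 in the control samples, below their array medians, which left little room to show a fall. *Tbx21*, which encodes T-bet and drives *Cxcr3*, was near the array medians in both groups (4.04 and 3.97, limma adjusted p = 0.868), and *Bcl6*, linked to *Cxcr5* in follicular cells, went from 7.09 to 6.32 without passing (limma adjusted p = 0.0702). *Klf2*, *Rora*, *Ahr*, *Tbx21* and *Bcl6* are named after their values were seen. The 5 that fell were 3 without control replicate 1, 2 or 3, and the 2 that rose were 4 without deficient replicate 3. After quantile or cyclic loess normalization 3 were called lower and 6 higher. With arrays centred on the brighter genes, 4 were called lower and 7 higher.

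Markers of the sorted cells moved with the receptors, in part. Beside them, 9.49% of all genes were called lower, and 20% in the fit on genes above the median signal. Of 6 Treg markers 4 fell, with a mean level of 15.46 to 15.72 in the control samples and 14.07 to 14.68 in the deficient samples. *Il2ra* (-0.13) and *Ctla4* (-0.68) did not pass. Of 7 CD4 T cell markers 4 fell (15.73 to 16.09 against 14.66 to 15.45), and of 9 CD8 T and NK cell markers 2 did (4.64 to 4.83 against 4.01 to 4.42). The part of these shifts in the receptor results was not tested.

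For each receptor, the gene whose signal followed it most closely over the 6 arrays was found by Pearson's r among 17369 genes. For the 7 receptors that passed the test, r includes the difference between the groups, which all such genes share. The other 3 did not pass, and their r also reflects the spread within groups. The highest r among so many genes over 6 arrays is high by selection, and it was at least 0.980 for every receptor. These matches are descriptions with no test. *Ccr6* and *Cxcr5* were each other's closest gene (r = 0.9985). *Ccr4* was closest to *Ptger2*, a prostaglandin E2 receptor (r = 0.9991), *Ccr8* to *Dusp22*, a phosphatase (r = 0.9992), and *Ccr2* to *Apobec3*, a cytidine deaminase (r = 0.9978). *Ccr7* was closest to *Bach2*, a repressor that keeps Treg cells in a resting state (r = 0.9969), which had a log2 fold change of 0.90 that did not pass (limma adjusted p = 0.0761). *Cxcr3*, *Ccr9*, *Cxcr4* and *Cxcr6* were closest to *Zfp979*, *Pgap1*, *Sipa1l1* and *Kcnn4*, with r from 0.980 to 0.996.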

How the data were processed

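CD4+YFP+ Treg cells were profiled on 6 Clariom S arrays, 3 per genotype. The authors' deposited values, 1 per probe set and array, were taken as log2 signals from their range. The submitters' processing notes name Affymetrix Expression Console 1.4. For the algorithm, the normalization and the annotation build, the sources used here give nothing, and arrays have no read depth, so precision rests on 3 arrays per group. No background flag was used, so folds of genes that end near the array median may be understated.

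Of 22206 probe sets, a symbol was paired with 19572 (0 of them with more than 1) and none with 2634; the probe set with the highest mean was kept per symbol, leaving 19505 genes, all of them matched by gene ID to RefSeq GRCm38.p6. Each receptor had 1 probe set. The contrast, deficient minus control, was fitted with limma 3.58.1 in R 4.3.3 (lmFit and eBayes) in place of the methods' t-test. Genes were called at a Benjamini-Hochberg adjusted p under 0.05, and 95% confidence intervals are limma's. The script was tested on simulated data. The fit was repeated with an intensity trend, robust moderation, array weights, centring on array medians or on the brighter genes, quantile and cyclic loess normalization, dim genes dropped (those under the median signal), every probe set kept, a block for the replicate number, single arrays omitted, and a rule of fold with unadjusted p. The methods' t-test was run on log2 and on linear values with the same Benjamini-Hochberg adjustment, which the methods do not name. The receptors and the lists were chosen with earlier results of these data known. Named are all receptors, the targeted genes, up to 4 genes with the smallest p per list, the closest gene of each receptor and neighbouring receptors, plus genes stated as chosen after their values were seen. The single cell type markers named and *Fyco1*, a neighbour that is no receptor, were also chosen after their values were seen. Marker lists covered Treg, CD4 T, CD8 T and NK, B, myeloid, dendritic, erythroid and muscle cells, and 0 of the dendritic, erythroid and muscle markers were called by limma (0, 0 and 1 at an unadjusted p under 0.05).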

Additional observations from a re-analysis of the deposited data

How the results depend on the processing

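The methods' t-test was given the same Benjamini-Hochberg adjustment as limma, whereas the paper called genes by an unadjusted P with a fold cut. With that adjustment the t-test called 2 receptors lower on log2 values and 1 on linear values, and 0 higher on either, against 6 and 1 with limma. Over all genes it called 23 lower and 7 higher on log2 values and 20 and 6 on linear values, against 1851 and 527. Centring on array medians left 0 receptors called higher and 279 genes higher. Genes called lower were 733 after quantile normalization, 876 after cyclic loess and 910 after centring on the brighter genes, where 6966 were called higher. Among the 9747 genes above the median signal, 1947 were called lower and 324 higher. With 1 array left out, 6 receptors stayed called lower and 0 to 1 higher, and the genes called were 544 to 2611 lower and 76 to 1012 higher. The cause of these differences was not tested. The median log2 fold change of all genes moved to -0.14 with arrays centred on their medians and to 0.64 with them centred on the brighter genes.

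*Cxcr4* turned positive on linear values (0.18), after quantile normalization (0.11), cyclic loess (0.093) and centring on the brighter genes (0.25), and without control replicate 3 (0.01) or deficient replicate 3 (0.86). With 1 array left out it ranged from -1.09 to 0.86. *Cxcr6* turned positive after centring on the brighter genes (0.29). No other receptor reversed under any alternative. Adjusted p of the t-test on log2 values was 0.0616 for *Ccr2*, 0.0541 for *Ccr4*, 0.112 for *Ccr8*, 0.075 for *Cxcr3* and 0.196 for *Ccr7*; on linear values *Cxcr5* also missed (0.0688).

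Same-numbered samples correlated at 0.0088, 0.1088 and 0.0209 in their deviations from the group means, so the numbers were not taken as pairs. With the replicate block, 2010 genes were called lower and 534 higher, and 6 and 1 receptors. The rule of a fold above 2 and an unadjusted p under 0.05 gave 2074 lower and 543 higher genes, and 6 and 1 receptors. With 3 pools per group, the receptors that did not pass are not shown to be unchanged.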
